A study of Arabidopsis thaliana with 12 samples.

Results

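The stem cell niche and the dividing cells of the root tip were followed through 10 genes, picked by gene ID from the 32678 genes of the count table. Of these, 6 pattern the niche (*PLT1*, *PLT2*, *PLT3*, *WOX5*, *SHR* and *SCR*) and 4 act in mitosis and cytokinesis (*CYCB1;1*, *CDKB1;1*, *CDKB2;1* and *KNOLLE*). All 10 passed the filter on low counts, which left 20168 genes for testing. RNA of whole roots was sequenced in 12 libraries, 3 from each of 4 groups that the study describes as biological replicates: *clf* without iron (-Fe), *clf* with sufficient iron (+Fe), wild type -Fe and wild type +Fe. Wild type is the Col-0 ecotype. The mutant is a single T-DNA line, *clf-29*, which carries no other allele that the sources name, and all 4 groups shared the same growth, 12 days on B5 medium and then 3 days on the -Fe medium, which held the iron chelator ferrozine, or on the +Fe medium. The p-values below measure the spread among these libraries.

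In the root meristem, a few slowly dividing cells of the quiescent center keep the stem cells around them undifferentiated. PLETHORA (PLT) proteins are dose-dependent AP2-domain transcription factors that hold cells in the meristem, WOX5 is a homeobox factor of the quiescent center, and the GRAS factors SHORT-ROOT (SHR) and SCARECROW (SCR) position the niche and specify the endodermis. Daughter cells then divide several times before they elongate. Entry into mitosis needs B-type cyclins such as CYCB1;1 bound to cyclin-dependent kinases, among them the plant-specific B-type kinases CDKB1;1 and CDKB2;1, and the syntaxin KNOLLE fuses vesicles at the cell plate during cytokinesis.

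Many genes of the G2 and M phases carry the mitosis-specific activator (MSA) element, which is bound by MYB3R transcription factors. The upstream windows of *CYCB1;1* and *KNOLLE* are shown because they are the members in which the core of this element was found, and because both genes return among the results below. Each is the 250 bases before the annotated gene start in the TAIR10.1 assembly of RefSeq, read on the minus strand of the chromosome, which is the strand of the gene. Each core, AACGG or its reverse complement CCGTT, is in capitals.
CYCB1;1, chr4:17624309-17624558: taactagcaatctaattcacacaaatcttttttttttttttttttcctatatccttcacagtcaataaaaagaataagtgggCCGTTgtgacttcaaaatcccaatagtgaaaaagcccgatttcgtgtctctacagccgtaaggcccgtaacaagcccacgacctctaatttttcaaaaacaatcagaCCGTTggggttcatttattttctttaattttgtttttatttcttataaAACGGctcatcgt
KNOLLE, chr1:2711001-2711250: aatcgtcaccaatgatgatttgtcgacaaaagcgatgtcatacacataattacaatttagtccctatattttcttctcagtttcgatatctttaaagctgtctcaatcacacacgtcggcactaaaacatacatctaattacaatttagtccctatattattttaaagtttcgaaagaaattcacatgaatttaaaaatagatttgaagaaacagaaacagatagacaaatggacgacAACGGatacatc
The window of *CYCB1;1* held 3 cores, the nearest ending 8 bases before the start, and that of *KNOLLE* held 1, ending 7 bases before it. Neither window overlaps an annotated gene. No core was found in the windows of *CDKB1;1* and *CDKB2;1* or in those of the 6 patterning genes, a statement about these letters in these windows only. The core stood in 20.6% of the windows of all 27443 protein-coding genes and in 20 of 34 windows (58.8%) of a list of other mitotic genes. Among a list of S phase genes it stood in 8 of 24 windows (33.3%).

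Total counts per library ranged from 18658428 to 28281420. The targeted gene *CLF*, which encodes a histone methyltransferase of PRC2, had 15.4, 12.6 and 13.2 CPM (read counts scaled to the size of the library, with TMM normalization) in *clf* -Fe and 15.8, 10.3 and 14.9 in *clf* +Fe, against 55.1, 51.3 and 50.9 in wild type -Fe and 49.7, 44.9 and 43.6 in wild type +Fe, so every *clf* library was below every wild type library. One library of each group correlated least with the rest of its group, namely *clf* -Fe replicate 1, *clf* +Fe replicate 2, wild type -Fe replicate 1 and wild type +Fe replicate 1 (mean r across genes 0.953, 0.950, 0.934 and 0.934, against 0.959 to 0.970 in the other 8). This rule sets apart 1 library per group, however close it is to the others. The 4 libraries so set apart bear on many values below, and the members and lists are therefore also described without them.

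Per length of the gene, the 10 members spanned the lower and the upper part of the root transcriptome. The mean over 12 libraries, in deposited FPKM, was 29.8 ± 9.77 (SD) for *KNOLLE*, followed by *SHR* (23.4 ± 4.80), *SCR* (19.2 ± 4.16), *PLT3* (16.5 ± 7.26), *CDKB2;1* (15.5 ± 5.04) and *CDKB1;1* (12.6 ± 3.01). It was 6.06 ± 2.13 FPKM for *CYCB1;1*, 3.75 ± 1.63 for *PLT1*, 2.36 ± 0.680 for *PLT2* and 1.93 ± 0.838 for *WOX5*, against a median of 9.60 FPKM over all tested genes. Neighbors in this order differed by less than the larger of their SDs, except *CDKB1;1* and *CYCB1;1*, and *CYCB1;1* and *PLT1*. *WOX5*, which is transcribed in only a few cells of the root tip, rested on 20 to 75 reads per library, while *SCR* had 742 to 1622. In each comparison of 2 groups *WOX5* had the largest standard error of the 10.

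**Figure D1:**
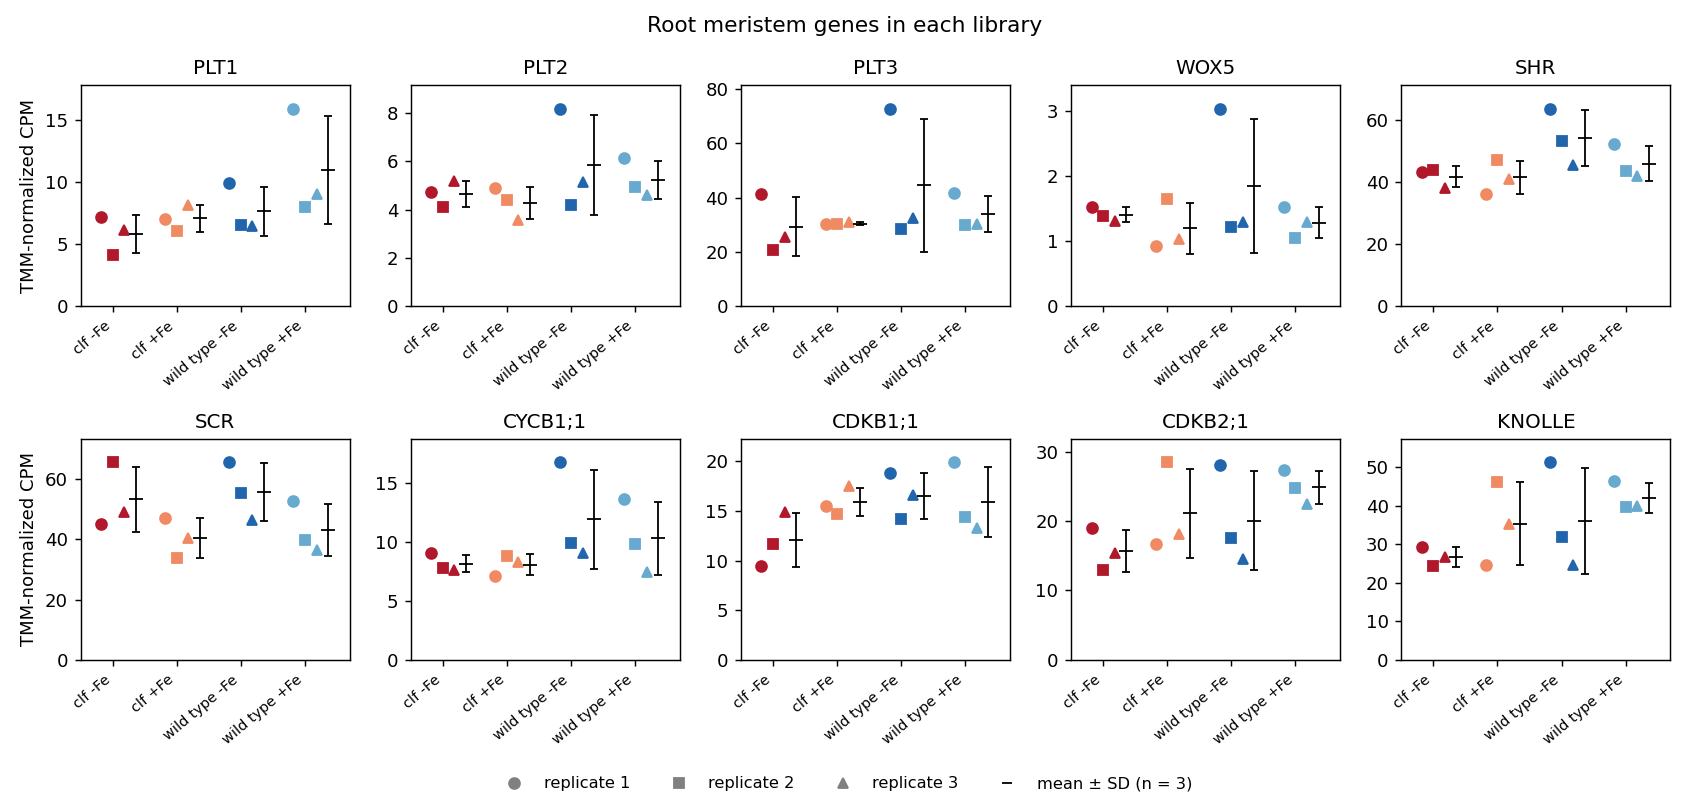
TMM-normalized CPM of the 10 genes (vertical axis, from 0) in each library of *clf* -Fe, *clf* +Fe, wild type -Fe and wild type +Fe (horizontal axis), with symbols for replicates and bars for the mean ± SD of 3 libraries. Replicate 1 was the highest of 3 for every gene in both wild type groups (31.1% of all tested genes). The libraries of *clf* -Fe lay wholly below those of wild type -Fe for *SHR* and *CYCB1;1* (6.28% of all tested genes).

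The plot of CPM by library shows the values that the comparisons rest on, and the members are taken here by role. *PLT1* (AT3G20840, chromosome 3, 7300444 to 7303693) had 7.17, 4.15 and 6.17 CPM in *clf* -Fe and 7.05, 6.02 and 8.13 in *clf* +Fe, against 9.92, 6.54 and 6.49 in wild type -Fe and 15.9, 7.98 and 9.02 in wild type +Fe. Its highest value was that of wild type +Fe replicate 1, and the groups overlapped under both iron conditions. *PLT2* (AT1G51190, chromosome 1, 18977176 to 18980618), which shares the role of *PLT1* in the niche, had 4.71, 4.10 and 5.17 CPM in *clf* -Fe and 4.89, 4.38 and 3.55 in *clf* +Fe, against 8.18, 4.20 and 5.16 in wild type -Fe and 6.12, 4.96 and 4.60 in wild type +Fe. Outside the wild type -Fe replicate 1 library, its values stayed within 3.55 to 6.12 CPM. *PLT3* (AT5G10510, chromosome 5, 3315401 to 3320323), also known as *AINTEGUMENTA-LIKE6* and expressed in lateral root primordia too, had 41.5, 20.7 and 25.5 CPM in *clf* -Fe and 30.2, 30.2 and 30.9 in *clf* +Fe, against 72.8, 28.3 and 32.5 in wild type -Fe and 41.7, 29.9 and 30.4 in wild type +Fe. The wild type -Fe group spread 2.57-fold for *PLT3*, against 1.03-fold in *clf* +Fe.

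*WOX5* (AT3G11260, chromosome 3, 3527280 to 3528440) had 1.53, 1.38 and 1.32 CPM in *clf* -Fe and 0.921, 1.64 and 1.03 in *clf* +Fe, against 3.04, 1.22 and 1.29 in wild type -Fe and 1.52, 1.04 and 1.29 in wild type +Fe. A single library, wild type -Fe replicate 1, stood above 1.64 CPM. *SHR* (AT4G37650, chromosome 4, 17691687 to 17693859), transcribed in the stele and moving as a protein into the adjacent cell layer, had 43.5, 44.0 and 38.0 CPM in *clf* -Fe and 36.3, 47.2 and 41.2 in *clf* +Fe, against 63.8, 53.4 and 45.6 in wild type -Fe and 52.4, 43.5 and 42.2 in wild type +Fe. Under iron deficiency, the *clf* libraries lay below all wild type libraries, which was so for 6.28% of all tested genes. *SCR* (AT3G54220, chromosome 3, 20069987 to 20072878), the partner of SHR in the endodermis and quiescent center, had 45.2, 65.6 and 49.2 CPM in *clf* -Fe and 47.0, 33.9 and 40.7 in *clf* +Fe, against 65.7, 55.3 and 46.5 in wild type -Fe and 52.8, 39.7 and 36.4 in wild type +Fe. Here the genotypes overlapped in both iron conditions, and the group means under iron deficiency were 53.3 ± 10.8 CPM in *clf* and 55.8 ± 9.59 in wild type (SD, n = 3 each).

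Of the division genes, *CYCB1;1* (AT4G37490, chromosome 4, 17621886 to 17624308) had 9.02, 7.83 and 7.66 CPM in *clf* -Fe and 7.08, 8.85 and 8.27 in *clf* +Fe, against 16.8, 9.92 and 9.07 in wild type -Fe and 13.6, 9.86 and 7.48 in wild type +Fe. The *clf* -Fe libraries lay below the wild type -Fe libraries without overlap, by a margin of 9.02 against 9.07 CPM at the nearest pair. Such a lack of overlap held for 6.28% of all tested genes. *CDKB1;1* (AT3G54180, chromosome 3, 20059671 to 20061488) had 9.51, 11.7 and 14.9 CPM in *clf* -Fe and 15.5, 14.7 and 17.5 in *clf* +Fe, against 18.8, 14.2 and 16.6 in wild type -Fe and 19.9, 14.4 and 13.3 in wild type +Fe. The lowest values of the 12 were those of *clf* -Fe replicates 1 and 2. *CDKB2;1* (AT1G76540, chromosome 1, 28720328 to 28722550), whose transcript is confined to G2 and M phase, had 18.9, 12.9 and 15.4 CPM in *clf* -Fe and 16.8, 28.5 and 18.1 in *clf* +Fe, against 28.1, 17.5 and 14.5 in wild type -Fe and 27.3, 24.8 and 22.5 in wild type +Fe. *KNOLLE* (AT1G08560, chromosome 1, 2709525 to 2711000) had 29.4, 24.3 and 26.6 CPM in *clf* -Fe and 24.7, 46.1 and 35.2 in *clf* +Fe, against 51.3, 32.0 and 24.6 in wild type -Fe and 46.5, 39.6 and 39.9 in wild type +Fe. In both of these genes *clf* +Fe replicate 2 and the wild type replicate 1 libraries were the high ones. Coordinates are those of TAIR10.1. The annotated spans of *PLT3*, *CDKB1;1*, *CDKB2;1* and *KNOLLE* overlap a gene on the opposite strand, by 454, 71, 44 and 464 bases. The sources do not say whether strand was used in counting, so how reads in those bases were counted is not known.

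The comparison of genotypes asks whether loss of CLF alters the meristem transcripts under each iron supply. Under iron deficiency all 10 members had lower estimates in *clf* than in wild type, as had 50.5% of all tested genes, and their median log2 fold change was -0.39, against -0.004 over all tested genes. None of the 10 passed the test, in which 0.134% of all tested genes were called (27 genes with an adjusted p under 0.05, from the quasi-likelihood test of edgeR, adjusted by Benjamini-Hochberg over all tested genes). *SHR* and *CDKB1;1* had an unadjusted p under 0.05, as had 7.72% of all tested genes, and 3.14% of all tested genes combined this with a lower estimate in *clf*, as both of them did. DESeq2 also called none of the 10. Without the single library wild type -Fe replicate 1, 8 of 10 estimates were below 0 and the median was -0.07. In bulk roots, fewer meristem cells and less RNA per cell cannot be told apart.

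The sizes were modest for both roles. *SHR* had a log2 fold change of -0.37 in *clf* over wild type (SE 0.16, 95% interval -0.72 to -0.03, edgeR adjusted p = 0.605). *CDKB1;1*, the kinase that partners A2-type cyclins, had -0.46 (SE 0.21, 95% interval -0.91 to -0.01, edgeR adjusted p = 0.640). *CYCB1;1* had -0.54 (SE 0.27, 95% interval -1.13 to 0.04, edgeR adjusted p = 0.669). Of these 3 genes, *SHR* and *CDKB1;1* had an unadjusted p under 0.05 (7.72% of all tested genes). The *clf* libraries lay wholly below those of wild type for *SHR* and *CYCB1;1* (6.28% of all tested genes). The intervals of *SHR* and *CDKB1;1* ended just below 0, and that of *CYCB1;1* included 0. The other division genes, *KNOLLE* (-0.43, SE 0.27) and *CDKB2;1* (-0.35, SE 0.27), and the other patterning genes, *PLT3* (-0.61, SE 0.35), *WOX5* (-0.39, SE 0.40), *PLT1* (-0.39, SE 0.30), *PLT2* (-0.33, SE 0.26) and *SCR* (-0.07, SE 0.20), had edgeR adjusted p-values from 0.737 to 0.948. The interval of *PLT3*, -1.37 to 0.16, spans a decrease to 0.386 of the wild type level as well as a small increase, whereas that of *SCR* ends at -0.51 and 0.38.

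Under iron sufficiency the estimates of 9 members were lower in *clf*, against 51.7% of all tested genes, with a median log2 fold change of -0.20. No member was called (0.0694% of all tested genes, 14 genes), none had an unadjusted p under 0.05 (3.37% of all tested genes), and DESeq2 called none. *PLT1* had the estimate farthest from 0, -0.64 (SE 0.30, 95% interval -1.30 to 0.03), followed by *CYCB1;1* at -0.36 (SE 0.27). *CDKB1;1*, at 0.0004 (SE 0.20, 95% interval -0.45 to 0.45), was the member with an estimate that was not below 0. Without the single library wild type +Fe replicate 1, 6 of 10 estimates were below 0 and the median was -0.07. Without replicate 1 of both wild type groups, *PLT1* was at -0.27 and *CYCB1;1* at -0.11, with 6 of 10 estimates below 0 and a median of -0.08. Without the 4 libraries that stand apart, 7 of 10 were below 0 and the median was -0.17. *PLT1* was then at -0.17 and *CYCB1;1* at -0.18, and *CDKB2;1* (-0.44, SE 0.14, edgeR adjusted p = 0.140) and *KNOLLE* (-0.41, SE 0.16, edgeR adjusted p = 0.257) were farthest from 0. The 2 comparisons use different libraries, but the 4 groups share 1 estimate of spread.

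**Figure D2:**
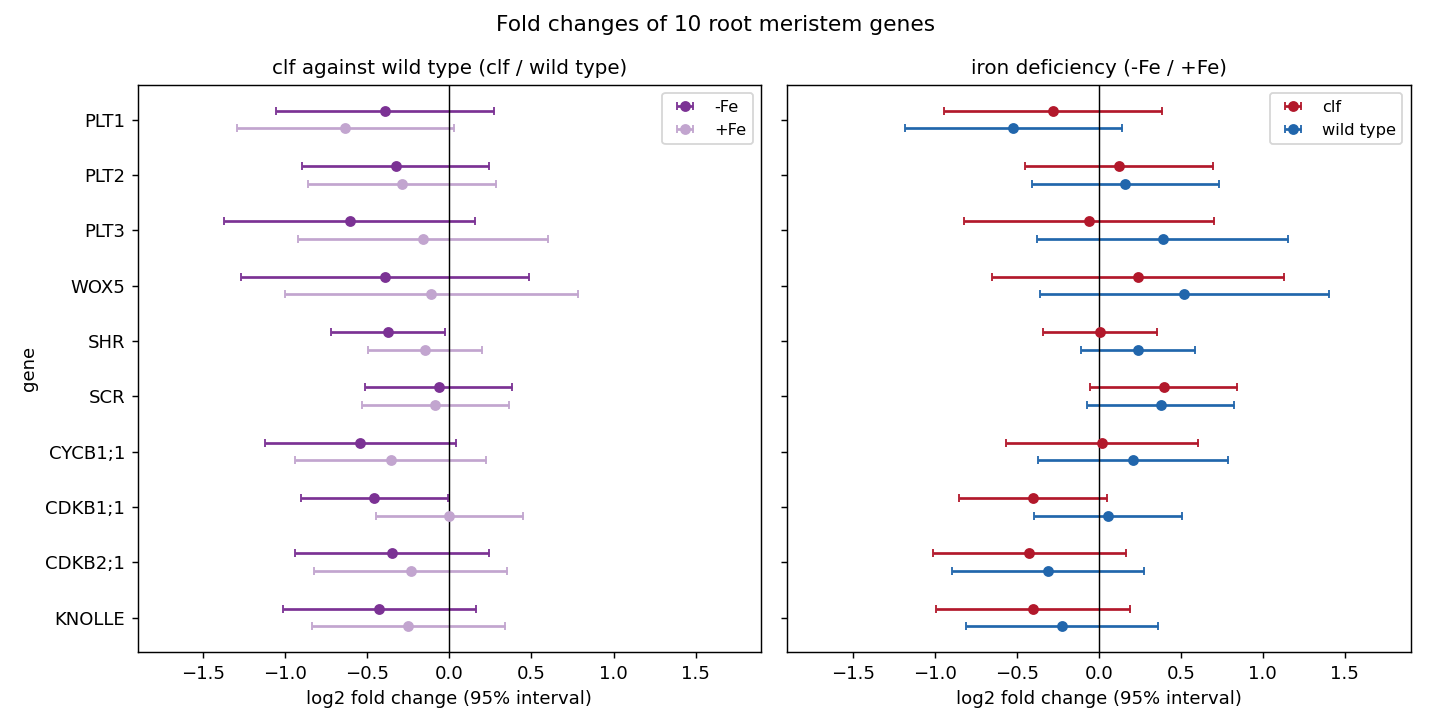
Log2 fold changes (horizontal axis) with 95% intervals of the 10 genes, for *clf* over wild type under -Fe and +Fe in the left panel and for -Fe over +Fe in *clf* and wild type in the right panel. The intervals of *SHR* and *CDKB1;1* for *clf* over wild type under -Fe end just below 0, and all others include 0.

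The iron comparisons ask which meristem transcripts respond to 3 days of iron deficiency. No member was called in *clf* (1.77% of all tested genes, 356 genes) or in wild type (4.41% of all tested genes, 890 genes), and none had an unadjusted p under 0.05 in either genotype, against 13.4% of all tested genes in *clf* and 18.6% in wild type. DESeq2 called none in either. In *clf*, 5 estimates were higher and 5 lower (51.3% of all tested genes were lower), with a median log2 fold change of -0.02. By role, the median was 0.07 over the patterning genes and -0.40 over the division genes. *CDKB2;1* (-0.42, SE 0.27), *CDKB1;1* (-0.40, SE 0.21) and *KNOLLE* (-0.40, SE 0.27) had the lower estimates under iron deficiency, while *CYCB1;1* was at 0.02 (SE 0.27), and the 95% intervals of all 4 included 0. *SCR* was the highest estimate, at 0.40 (SE 0.20, 95% interval -0.05 to 0.85).

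In wild type, 7 estimates were higher and 3 lower (50.3% of all tested genes were lower), with a median log2 fold change of 0.18, and of 0.31 over the patterning genes and -0.08 over the division genes. *SCR* had nearly the estimate it had in *clf*, 0.38 (SE 0.20, 95% interval -0.07 to 0.83, edgeR adjusted p = 0.364). The estimate of *PLT1* was -0.52 (SE 0.30), that of *WOX5* 0.52 (SE 0.40) and that of *PLT3* 0.39 (SE 0.35), and none of these passed the test. Without the single library wild type -Fe replicate 1, 8 of 10 estimates were below 0 and the median was -0.14. *CDKB2;1* (-0.31, SE 0.27) and *KNOLLE* (-0.22, SE 0.27) again had negative estimates. With the replicate number as a block in a fit of only the 6 wild type libraries, *SCR* was called, at 0.38 (edgeR adjusted p = 0.0454, within a range of 0.0423 to 0.648 over its alternatives). Pairing by number was assumed here, as the labels give only replicate numbers. Deviations of wild type -Fe replicate 2 correlated at 0.440 and 0.429 with +Fe replicates 2 and 3. Those of -Fe replicate 3 did so at 0.412 and 0.463, so these replicates were not clearly paired. The fit with the block called 2406 genes, 12.3% of those it tested, against 414 in a fit of the same libraries without the block. Thus 1 of 10 members is near the share of all genes. A replicate block in the model of 4 groups called none of the 10.

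The difference between the iron responses, *clf* minus wild type, was tested directly. Of 10 estimates 8 were negative, as were 49.1% of those of all tested genes, with a median of -0.18 and a range from -0.46 for *CDKB1;1* to 0.24 for *PLT1*. None was called, as was no gene of all tested (0%, edgeR; 320 genes or 1.59% had an unadjusted p under 0.05, none of the 10 among them, and DESeq2 called 3 genes, also none of the 10). The 95% interval of the difference was -1.09 to 0.18 for *CDKB1;1* and -1.53 to 0.63 for *PLT3*. The sign of most estimates turned with 1 library, since without wild type -Fe replicate 1, 8 of 10 were positive, with a median of 0.16, and without wild type +Fe replicate 1, 10 of 10 were negative, with a median of -0.29. Without replicate 1 of both wild type groups 5 of 10 were negative (median 0.05), and without the 4 libraries that stand apart 6 of 10 (median -0.07).

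Replicate 1 of both wild type groups carried more of each member's transcript than the other libraries of its group. All 10 members were highest in replicate 1 in both groups, which held for 31.1% of all tested genes. In wild type -Fe the level in replicate 1, over the mean of replicates 2 and 3, ran from 1.22-fold for *CDKB1;1* to 2.42-fold for *WOX5*, with 2.39-fold for *PLT3* and 1.81-fold for *KNOLLE*, against a median of 1.02-fold over all tested genes. In wild type +Fe it ran from 1.16-fold for *CDKB2;1* to 1.87-fold for *PLT1*, against 1.00-fold over all tested genes. The libraries that stand apart in *clf* did not show this for all members. *clf* -Fe replicate 1 was the highest for 6 of 10 (37.7% of all tested genes), and *clf* +Fe replicate 2 for 5 of 10 (41.1%), 3 of them division genes.

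Markers of other root cells also differed in the libraries that stand apart, and their direction depended on the list and the genotype. The summed level of 6 root hair genes was 150, 293 and 493 CPM in *clf* -Fe (lowest, median and highest library) and 98.8, 195 and 201 in *clf* +Fe, against 39.5, 276 and 325 in wild type -Fe and 27.2, 150 and 158 in wild type +Fe, and both wild type minima were replicate 1. The summed level of 6 Casparian strip genes was lowest in the same libraries. It was 109 CPM in wild type -Fe and 129 in wild type +Fe, where the medians were 257 and 229. In *clf* it was lowest in -Fe replicate 1 (218 CPM, against a median of 220) and highest in +Fe replicate 2 (253). The summed level of 6 green shoot genes was 271 CPM in wild type -Fe replicate 1, against a group median of 46.9, and 463 in wild type +Fe replicate 1, against 188. In *clf* +Fe replicate 2 it was 722 CPM, against a median of 278, and in *clf* -Fe replicate 1 it was the group median, 97.6. For 7 xylem genes the sum was lowest in both wild type replicate 1 libraries (165 CPM in -Fe and 112 in +Fe). It was highest in *clf* -Fe replicate 1 (354) and *clf* +Fe replicate 2 (303). The sum of 4 lateral root genes was also highest in these *clf* libraries (9.10 and 7.35 CPM). In wild type replicate 1 it was 7.12 in -Fe, the median, and 4.01 in +Fe, the lowest. No gene of the root hair, Casparian strip, xylem, lateral root or green shoot lists was called in any of the 5 comparisons in the model of 12 libraries, none of these genes was at 0 in all libraries, and *LHCB1.4* was at 0 in 4 of them. The part of these markers in the levels of the meristem genes was not tested.

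**Figure D3:**
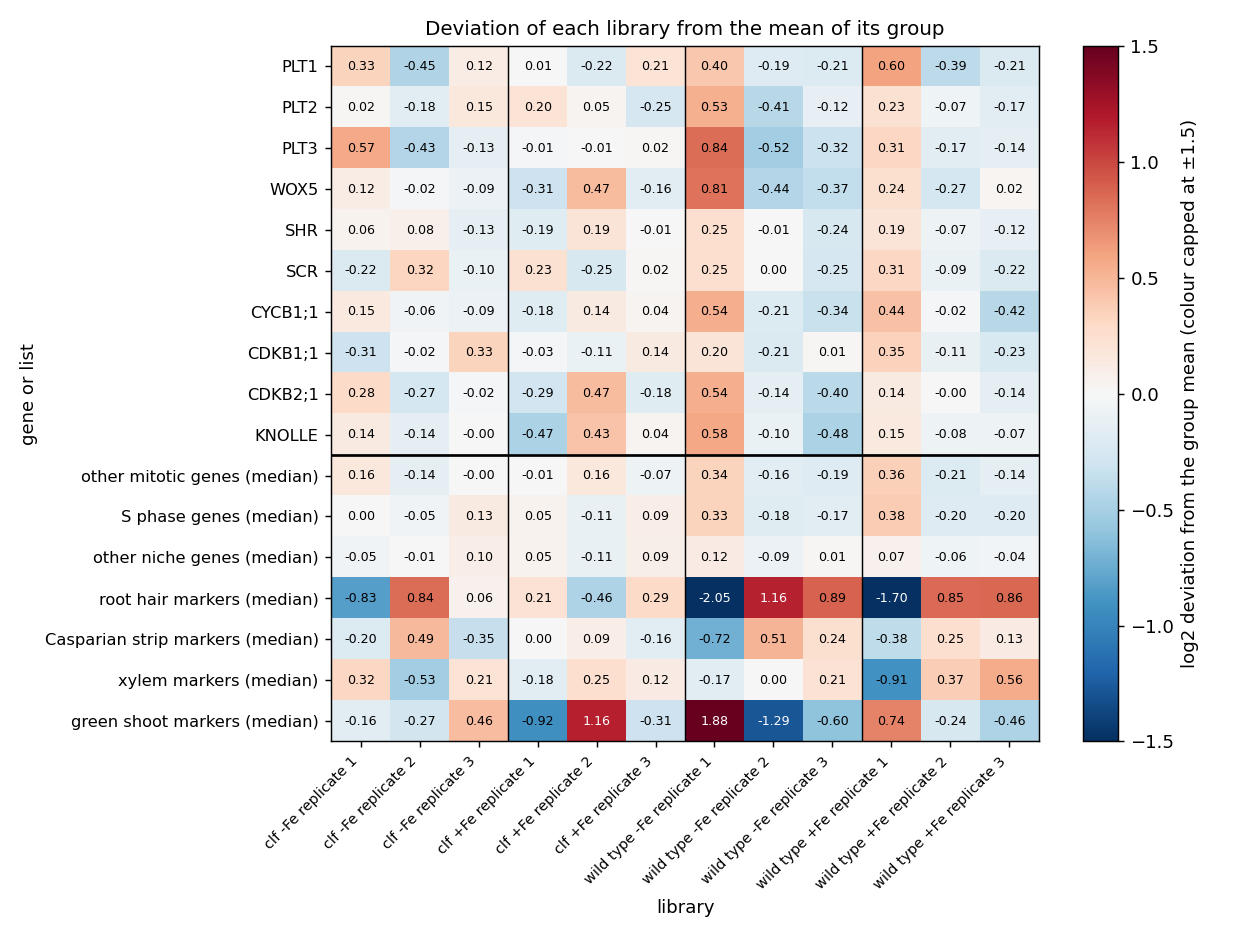
Deviation of log2 CPM from the mean of the group (color and printed value) for the 10 genes and the median of 7 lists (rows) in each of 12 libraries (columns). Wild type -Fe replicate 1 and wild type +Fe replicate 1 have positive values for all 10 members, from 0.20 to 0.84 and from 0.14 to 0.60, and negative values for root hair markers, -2.05 and -1.70.

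Without replicate 1 of both wild type groups, a choice made after the data were seen, the genotype difference under iron deficiency shrank. The median log2 fold change of the 10 members was then -0.06, and 7 of 10 estimates were below 0. *SHR* (-0.24), *CDKB1;1* (-0.35) and *CYCB1;1* (-0.21) kept lower estimates in *clf*, while *PLT3* came to -0.05, *KNOLLE* to -0.08 and *CDKB2;1* to -0.02, and *WOX5* (0.17), *SCR* (0.07) and *PLT2* (0.0008) were on the other side of 0. No member was called, with 0.472% of all tested genes called. Without all 4 libraries that stand apart, 8 of 10 estimates were below 0, the median was -0.19, and no member was called although 7.98% of all tested genes were. *PLT1*, *PLT3*, *SHR* and the 4 division genes had estimates below 0 in each of these fits.

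**Figure D4:**
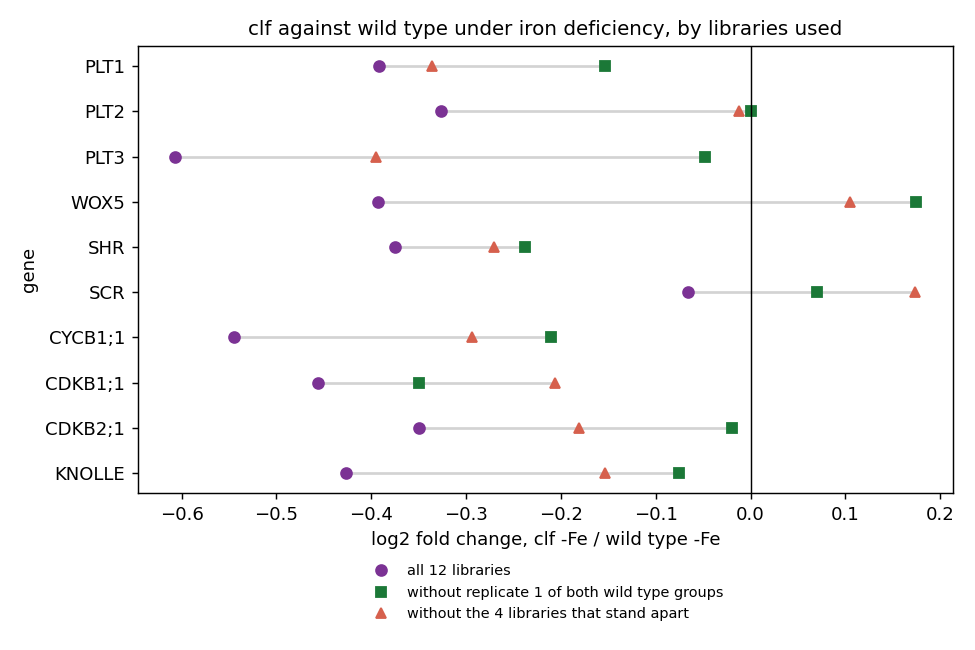
Log2 fold change of *clf* -Fe over wild type -Fe (horizontal axis) for the 10 genes with all 12 libraries (circles), without replicate 1 of both wild type groups (squares) and without the 4 libraries that stand apart (triangles). Most estimates lie nearer to 0 without these libraries, with medians of -0.39, -0.06 and -0.19.

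In the iron comparisons, leaving out the 4 libraries brought calls. In wild type, with 27.3% of all tested genes then called, *CDKB2;1* fell (log2 fold change -0.56, SE 0.14, edgeR adjusted p = 0.00888, within 0.00888 to 0.897 over its alternatives), as did *KNOLLE* (-0.49, SE 0.16, edgeR adjusted p = 0.0409, within 0.0409 to 0.991), and *SCR* rose (0.42, SE 0.14, edgeR adjusted p = 0.0423, within 0.0423 to 0.648). In *clf*, with 14.6% called, *PLT3* fell (-0.40, SE 0.13, edgeR adjusted p = 0.0479, within 0.0479 to 0.992). The 3 of 10 members called in wild type are near the share of all tested genes, and the 1 of 10 in *clf* is below it. These 8 libraries are the better correlated ones of each group, a choice that narrows the spread and favors small p-values. Markers of other cells moved in the same fit. In wild type the root hair genes *RSL4*, *LRX1* and *PRP3* rose under iron deficiency (3 of 6 genes, list median 1.05), the green shoot genes *RBCS1A*, *LHCB1.1*, *LHCA1* and *PSAD1* fell (4 of 5) and the xylem genes *CESA4* and *CESA8* fell (2 of 7). None of 6 Casparian strip genes was called, with a median log2 fold change of 0.40. In *clf* the same 3 root hair genes rose (list median 1.08), *PSAD1* fell, and the Casparian strip genes, none of them called, had a median of 0.38. For *clf* over wild type, *RBCS1A*, *LHCB1.1* and *PSAD1* were higher under iron deficiency and *LHCB1.1* lower under iron sufficiency, and the difference between the iron responses was called for *LHCB1.1* and *PSAD1*. The part of these markers in the calls of the members was not tested. No member was called for the genotype comparisons (2.59% of all tested genes under iron sufficiency) or for the difference between the iron responses (2.25%).

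Within the 12 libraries the members varied together in part. After each gene was centered on its group means, the median Pearson correlation over 12 libraries was 0.63 for the 6 pairs of division genes, 0.47 for the 15 pairs of patterning genes and 0.56 for the 24 pairs across roles. *CDKB2;1* and *KNOLLE* had the highest value, 0.93, and *SCR* and *CDKB2;1* the lowest, -0.03. Correlations over the 8 libraries without those that stand apart, here and below, kept the centering on all 3 libraries of each group. The left-out libraries therefore still enter these values through the group means. The medians over the 8 were 0.42, 0.12 and 0.19, and *CDKB2;1* with *KNOLLE* had 0.78. The lowest pair over the 8 was *PLT2* with *SHR*, at -0.58. Correlations for pairs of all tested genes were not determined, so these medians have no such value beside them. Among genes outside the lists, the mean of the division genes was tracked most closely by AT3G02640 (r = 0.99 over 12 libraries, 0.96 over 8) and *TRIP-1* (0.99 and 0.95), followed by AT5G40150, AT5G66860 and AT5G03830, and that of the patterning genes by *AT-HF* (0.99 and 0.96), AT1G48570, *MTA* (0.98 and 0.92), *RRP4* (0.98 and 0.90) and AT1G09640. These are descriptions, as all points share the depth and tissue makeup of their libraries.

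A list of 34 other mitotic genes (cyclins of the A and B types, CDKB kinases, Aurora kinases, CDC20, kinesins of the spindle and phragmoplast, and MYB3R factors) mostly had estimates below 0. In *clf* over wild type, 31 of 34 estimates were below 0 under iron deficiency (median log2 fold change -0.29) and 31 of 34 under iron sufficiency (-0.18). Of all tested genes, 50.5% and 51.7% were below 0 there. In -Fe over +Fe, 32 of 34 were below 0 in *clf* (median -0.35, against 51.3% of all tested genes) and 29 of 34 in wild type (-0.17, against 50.3%). None of the 34 was called in any comparison by edgeR. *CYCB2;1*, a B-type cyclin, had the smallest p, for iron deficiency in wild type (-0.93, SE 0.28, edgeR adjusted p = 0.0934). Without replicate 1 of both wild type groups the medians for *clf* over wild type were -0.12 under iron deficiency (26 of 34 below 0) and 0.004 under iron sufficiency (16 of 34). Those for iron deficiency were then -0.35 in *clf* (32 of 34) and -0.17 in wild type (24 of 34). In *clf*, 1 gene was called lower, as were 2.32% of all tested genes. Without the 4 libraries that stand apart, 9 of the 34 were called lower under iron deficiency in *clf*, where 5.64% of all tested genes were, and *CYCB2;3* and *MAD2* in wild type, where 13.3% were. In *clf* over wild type under iron deficiency *CYCB1;2* and *CDC20.1* were called lower, as were 3.1% of all tested genes, and none of the 34 was called higher in any comparison of this fit.

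Genes that passed the test under iron deficiency were found in 4 further lists, and in the model of 12 libraries none of these lists had a gene called between genotypes. For iron deficiency, 1.77% of all tested genes were called in *clf* and 4.41% in wild type. Of 24 S phase genes (MCM helicase subunits, PCNA, histone H3.1 and replication factors), *TSO2*, the small subunit of ribonucleotide reductase, rose in both genotypes. It had 221, 124 and 123 CPM in *clf* -Fe against 38.9, 34.3 and 40.7 in *clf* +Fe (log2 fold change 2.04, SE 0.33, edgeR adjusted p = 0.0109), and 320, 166 and 154 in wild type -Fe against 49.8, 32.0 and 29.8 in wild type +Fe (2.52, SE 0.34, edgeR adjusted p = 0.00268). The groups did not overlap in either genotype, and the share of all tested genes without such overlap was not determined. The median of the 24 genes was -0.08 in *clf* and 0.05 in wild type, so that *TSO2* stood apart from the rest of its list. As a count, 1 gene called of 24 is near the share of all tested genes in wild type. In *clf*, its call was lost without *clf* +Fe replicate 1, 2 or 3 (edgeR adjusted p = 0.0679, 0.0656 and 0.0545, at log2 fold changes of 2.06, 1.96 and 2.09).

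Of 19 inhibitors and endocycle genes, *SMR5*, a cyclin-dependent kinase inhibitor of the SIAMESE-RELATED family, rose in both genotypes. Its level was 7.49, 7.83 and 4.81 CPM in *clf* -Fe against 0.885, 0.593 and 0.981 in *clf* +Fe (log2 fold change 3.02, SE 0.45, edgeR adjusted p = 0.00613), and 7.61, 24.9 and 14.4 in wild type -Fe against 1.14, 1.98 and 2.25 in wild type +Fe (3.13, SE 0.44, edgeR adjusted p = 0.00326). *SMR4*, of the same family, had 3.99, 1.84 and 1.45 CPM in *clf* -Fe against 0.744, 0.639 and 0.748 in *clf* +Fe, which did not pass the test (1.77, edgeR adjusted p = 0.0769). It rose in wild type, with 5.99, 2.89 and 2.72 CPM in wild type -Fe against 1.05, 0.991 and 0.959 in wild type +Fe (1.94, SE 0.43, edgeR adjusted p = 0.0290). Leaving out wild type -Fe replicate 1 or 2, or wild type +Fe replicate 1, 2 or 3, ended the call of *SMR4* in wild type (log2 fold changes 1.48, 2.11, 1.98, 1.94 and 1.91, edgeR adjusted p = 0.0585, 0.0534, 0.0591, 0.106 and 0.112), as did a fit of only the 6 wild type libraries (0.0707). The other 17 genes of the list were not called in either genotype. Of all tested genes, 1.77% were called in *clf* and 4.41% in wild type.

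Of 9 tested genes among *CDKA;1* and the D-type cyclins, which drive entry into the cell cycle, *CYCD3;3* rose in both genotypes and *CYCD1;1* fell in wild type. *CYCD3;3* had 30.3, 32.8 and 31.3 CPM in *clf* -Fe against 21.3, 18.7 and 22.7 in *clf* +Fe (log2 fold change 0.59, SE 0.12, edgeR adjusted p = 0.0316), and 37.7, 36.9 and 34.9 in wild type -Fe against 20.0, 22.9 and 20.5 in wild type +Fe (0.79, SE 0.12, edgeR adjusted p = 0.00464). The call in *clf* was lost when any 1 of the 6 *clf* libraries, or of the 4 wild type libraries of replicates 2 and 3, was left out (edgeR adjusted p from 0.0527 to 0.142, log2 fold change from 0.50 to 0.65), without the filter on low counts (0.0539), in a fit of only the 6 *clf* libraries (0.0862) and by limma on log2(FPKM + 1) (0.103). *CYCD1;1* had 18.4, 15.5 and 17.1 CPM in *clf* -Fe against 28.4, 33.9 and 24.7 in *clf* +Fe (-0.77, edgeR adjusted p = 0.0856), which did not pass the test, and 12.8, 11.6 and 11.5 in wild type -Fe against 15.0, 26.4 and 22.7 in wild type +Fe (-0.84, SE 0.20, edgeR adjusted p = 0.0379). Its call in wild type was lost without replicate 2 or 3 of either wild type group, *clf* -Fe replicate 2 or 3, or *clf* +Fe replicate 1 or 3 (edgeR adjusted p from 0.0536 to 0.151, log2 fold change from -0.85 to -0.66), in a fit of only the 6 wild type libraries (0.131) and with a replicate block (0.0578). The shares called among all tested genes were 1.77% in *clf* and 4.41% in wild type. *CYCD7;1* was at 0 in 11 of 12 libraries and was not tested.

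Of 27 tested genes among the other niche and patterning genes (further PLETHORA genes, partners of SHR and SCR, root cap factors, RGF peptides and PIN auxin carriers), 1 rose and 1 fell in wild type. There 4.41% of all tested genes were called. None of the 27 was called in *clf*, against 1.77% of all tested genes. *MP*, the auxin response factor MONOPTEROS, had 106, 131 and 141 CPM in *clf* -Fe against 66.1, 39.8 and 55.4 in *clf* +Fe (log2 fold change 1.23, edgeR adjusted p = 0.0523), and 80.0, 147 and 178 in wild type -Fe against 46.0, 51.6 and 60.3 in wild type +Fe (1.36, SE 0.28, edgeR adjusted p = 0.0198). Its groups did not overlap in either genotype. *BBM*, also called *PLT4* and of the same family as *PLT1*, had 3.26, 4.84 and 5.90 CPM in *clf* -Fe and 6.16, 4.93 and 6.78 in *clf* +Fe, where the groups overlapped. In wild type it had 6.03, 4.96 and 5.25 CPM in -Fe against 9.75, 11.1 and 9.93 in +Fe, without overlap (-0.92, SE 0.22, edgeR adjusted p = 0.0420). For *MP* and *BBM* too, the share of all tested genes without overlap was not determined. The estimates of *MP* and *BBM* kept their sign in every fit, but both calls were lost when certain single libraries were left out. That of *MP* was lost without wild type -Fe replicate 2 or 3 or wild type +Fe replicate 1, 2 or 3 (edgeR adjusted p from 0.0537 to 0.0850, log2 fold change from 1.11 to 1.47), and that of *BBM* without any of these 5, *clf* -Fe replicate 2, or *clf* +Fe replicate 1 or 3 (edgeR adjusted p from 0.0610 to 0.167, log2 fold change from -0.95 to -0.86). In a fit of only the 6 wild type libraries neither was called by edgeR (adjusted p = 0.0756 for *MP* and 0.0640 for *BBM*), and *BBM* was not called with a replicate block (adjusted p = 0.0573) or without the filter on low counts (0.0504) either.

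Between genotypes none of the 27 niche genes was called in the model of 12 libraries. The smallest p under iron deficiency was that of *MGP*, a zinc finger gene that SHR and SCR activate, at a log2 fold change of -0.74 in *clf* over wild type (SE 0.15, edgeR adjusted p = 0.142). Of the 27, 21 had estimates below 0 under iron deficiency (median -0.19, against 50.5% of all tested genes below 0) and 18 under iron sufficiency (median -0.11, against 51.7%). *CLE40* was at 0 in 9 of 12 libraries and was not tested.

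Without the 4 libraries that stand apart, the lists of S phase, inhibitor, G1 and niche genes had more calls, as had all tested genes (14.6% for iron deficiency in *clf*, 27.3% in wild type and 7.98% for *clf* over wild type under iron deficiency). In both genotypes *TSO2*, *SMR5*, *CYCD3;3* and *MP* were called higher and *CYCD1;1* lower under iron deficiency. In *clf*, the zinc finger gene *NUC*, *CYCD2;1* and *CCS52A1*, an activator of the anaphase-promoting complex in endocycles, were also called higher, and the auxin carrier *PIN4* and the helicase subunit *MCM3* lower. In wild type, *MGP*, *CYCD6;1*, the inhibitors *KRP2*, *KRP6* and *SMR4* and a histone H3.1 gene (AT1G09200) were also called higher, and *BBM*, *SHY2*, *KRP4* and *SIM* lower. For *clf* over wild type under iron deficiency, *MGP* (log2 fold change -0.60, SE 0.12, edgeR adjusted p = 0.00551), the auxin carrier *PIN7* (-0.51), *TSO2* (-0.38) and *SMR5* (-1.64) were called lower and *CYCD1;1* (0.50) higher. None of the 4 lists had a call between genotypes under iron sufficiency. The difference between the iron responses was called for *TSO2* (-0.74, SE 0.15, edgeR adjusted p = 0.0139), whose increase was thus smaller in *clf* in this fit, and 2.25% of all tested genes were called there.

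**Figure D5:**
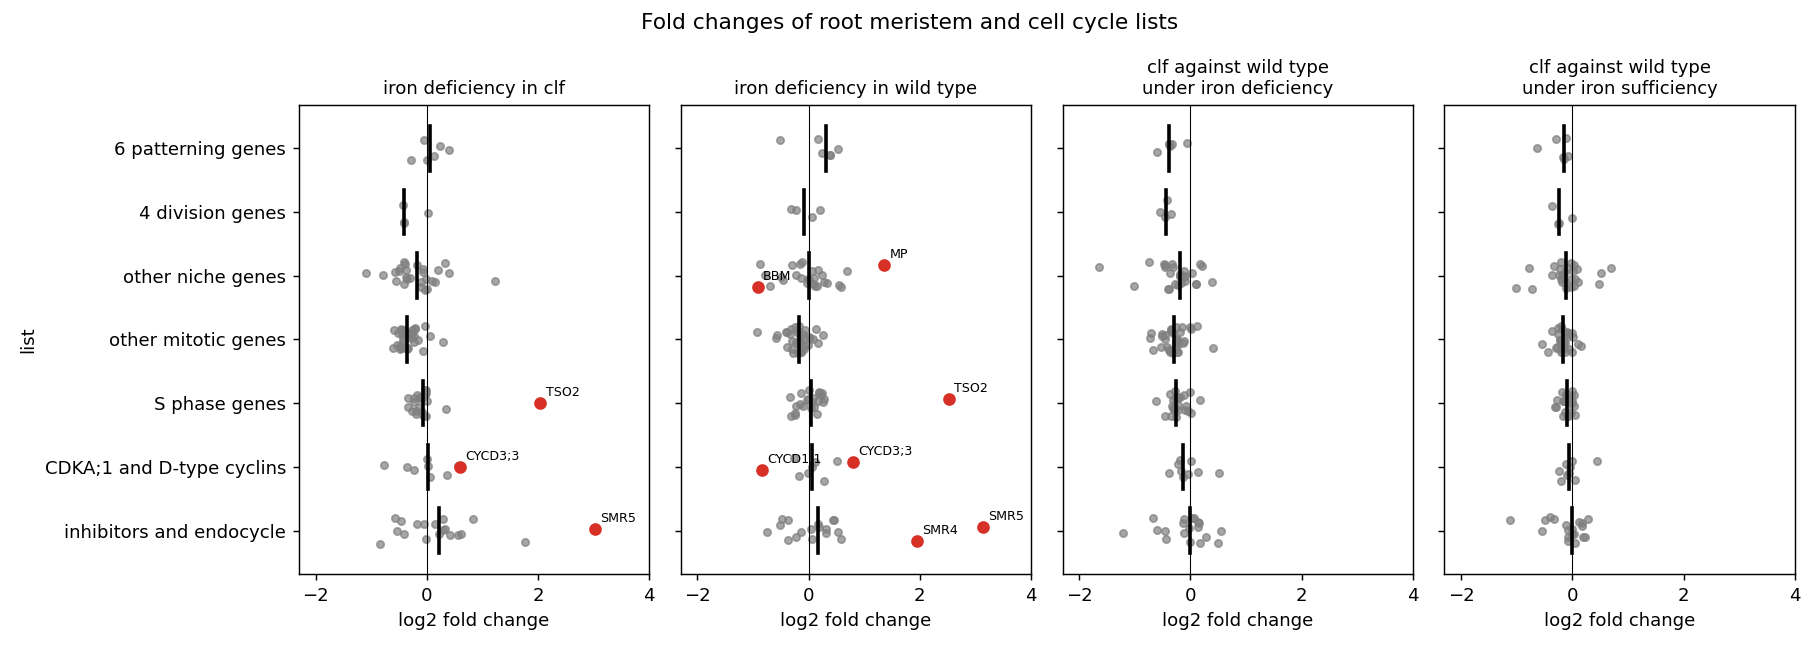
Log2 fold changes (horizontal axis) of the genes of 7 lists (rows) in the 4 comparisons of 2 groups (panels), with the median of each list as a black bar and genes with an adjusted p under 0.05 as labelled red points. The 10 members have no red point, the other mitotic genes lie mostly left of 0, and *SMR5*, *TSO2* and *CYCD3;3* lie to the right in both iron panels.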

How the data were processed

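RNA of wild type and *clf* roots was measured in 12 libraries, 3 in each of 4 groups taken from the sample labels. The authors aligned 150 bp paired-end reads of a stranded mRNA kit to TAIR10 (TopHat2 is the aligner in the submitters' notes, with no version) and deposited raw read counts per gene, made by HTSeq in union mode. The deposited FPKM were computed by the authors from read counts, gene length and library size. An unnamed column at the end of that table holds no measurement and was left out.

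Using edgeR 4.0.16 in R 4.3.3, 1 model of the 4 groups was fitted to the counts by robust quasi-likelihood after filterByExpr and TMM scaling, with Benjamini-Hochberg adjustment over 20168 genes and a threshold of 0.05. CPM values are TMM-normalized, and log2 CPM used a prior count of 2. Standard errors were derived from the fold change and its F statistic. The smallest library held 18658428 counts, and the common biological coefficient of variation was 0.302. The fit was tested on simulated data. Gene names and positions are those of TAIR10.1, which names 31912 of the gene IDs.

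The members, the lists, the markers and the tests were chosen with earlier results of these data known. The text names all 10 members, from each further list the genes called in a comparison (at most 4) or the gene with the smallest p, *CLF*, and the 5 genes outside the lists most correlated with each group of members. *MGP*, genes at 0 and genes of the further lists and markers called only without the 4 libraries that stand apart were named after their values were seen. Alternatives were DESeq2 1.42.0, RLE factors, no filter, at least 10 reads in every library, a replicate block, only the 6 libraries compared, limma 3.58.1 on log2-transformed FPKM with a pseudocount of 1 (with and without a filter of at least 1 FPKM in 3 libraries) or 0.1, leaving out each library and leaving out the 4 that stand apart. Leaving out replicate 1 of both wild type groups and the 6 libraries with a replicate block were added after the data were seen. Deviations of same-numbered libraries from their group means correlated above 0.1 in every pair of the wild type iron comparison (0.616, 0.440 and 0.463) and of *clf* against wild type under -Fe (0.448, 0.541 and 0.165), where the numbers were taken to pair the libraries, but not for iron in *clf* (-0.394, -0.345 and 0.432) or genotype under iron sufficiency (-0.386, -0.398 and 0.344).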

Additional observations from a re-analysis of the deposited data

How the results depend on the processing

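The 10 members were refitted under 24 alternatives in each comparison of 2 groups, 12 of which leave out 1 library each. Of 240 values each, 16 had the opposite sign for iron deficiency in *clf*, 13 in wild type, 8 for *clf* over wild type under iron deficiency and 16 under iron sufficiency. Members were called only for iron deficiency. The fit without the 4 libraries that stand apart called 1 in *clf* (14.6% of all tested genes) and 3 in wild type (27.3%). The fit of the 6 wild type libraries with a replicate block called 1 (12.3% of all genes tested in that fit). The replicate block changed no other call of a member. In *clf* the numbers do not pair the libraries, since *clf* -Fe replicate 1 correlated best with *clf* +Fe replicate 2 (r = 0.565 across genes, of deviations from the group means), and with the block in a fit of the 6 *clf* libraries the edgeR adjusted p was 0.0860 for *TSO2*, 0.272 for *CYCD3;3* and 0.0935 for *SMR5* (in the model of 12 libraries with the block, 0.0523 for *CYCD3;3*), with 31 genes called, against 425 in that fit without the block and 356 in the model of 12 libraries. For the difference between the iron responses, 33 of 220 values had the opposite sign, 6 of them without wild type -Fe replicate 1, and edgeR, DESeq2 and limma called none (smallest adjusted p 0.308). Where values moved, the cause was not tested. *WOX5* rested on the fewest reads, 20 to 75 per library.

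For iron deficiency in *clf*, the log2 fold change of *SHR* was -0.00323 with no filter, -0.010 with at least 10 reads in every library, -0.100 by limma on log2(FPKM + 1), with or without its filter, and -0.104 on log2(FPKM + 0.1). That of *CYCB1;1* was -0.00412 with the replicate block and -0.082 and -0.096 by limma with these pseudocounts. Leaving out 1 library gave -0.074 to 0.094 for *SHR*, -0.062 to 0.075 for *CYCB1;1* and -0.40 to 0.13 for *PLT3*, which was positive without *clf* -Fe replicate 2 or 3.

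For iron deficiency in wild type, *CDKB1;1* was at -0.00305 and -0.00266 by limma, *PLT2* at -0.032 without the 4 libraries and -0.049 without replicate 1 of both wild type groups, and *PLT3* at -0.0061 without those wild type libraries. Leaving out 1 library gave -0.057 to 0.25 for *CDKB1;1*, -0.12 to 0.46 for *CYCB1;1*, -0.16 to 0.35 for *PLT2*, -0.16 to 0.63 for *PLT3* and -0.039 to 0.75 for *WOX5*. The lowest of these came without wild type -Fe replicate 1, except for *CDKB1;1*.

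For *clf* over wild type under iron deficiency, *WOX5* was at 0.11 and *SCR* at 0.17 without the 4 libraries, and *WOX5* at 0.17, *SCR* at 0.071 and *PLT2* at 0.00078 without replicate 1 of both wild type groups. Leaving out 1 library gave -0.24 to 0.068 for *SCR* and -0.62 to 0.17 for *WOX5*, both highest without wild type -Fe replicate 1. Under iron sufficiency, *CDKB1;1* was at -0.020 and -0.019 by limma. *PLT3* and *SCR* were at 0.019 and 0.20 without the 4 libraries, and *PLT3*, *SCR* and *WOX5* at 0.0054, 0.083 and 0.015 without replicate 1 of both wild type groups. Leaving out 1 library gave -0.11 to 0.20 for *CDKB1;1*, -0.24 to 0.014 for *PLT3*, -0.22 to 0.089 for *SCR* and -0.40 to 0.033 for *WOX5*.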
